A study of Mus musculus with 24 samples.

Results

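Threonine and glycine feed the folate-dependent pool of activated single-carbon units that cells use for nucleotides and methylation. 6 genes of this pathway are described here, Tdh, Gcat, Gldc, Shmt1, Shmt2 and Mthfd2, out of 30590 gene symbols in the files of days 1 to 4 and 43629 Ensembl identifiers in the endpoint files. The genes were chosen by the measured day 1 and day 4 levels of Tdh, which moved in opposite directions in AGO2 knockout and wild-type cells. The other 5 genes were added as steps next to Tdh. All 6 passed the filter on low counts in every fit. The values of days 1 and 4 are therefore a description with no test. Tests are given for days 2 and 3, which for Tdh are not independent of the choice, and for the endpoint libraries.

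The study followed E14 mouse embryonic stem cells (mESCs), a 129/Ola line, through a 5 day protocol directed towards extraembryonic endoderm (XEN), the cell type that lines the yolk sac. The medium held 15% serum, 0.1 µM all-trans retinoic acid and 10 ng/mL activin A. AGO2 knockout (KO) and wild-type (WT) cells, both E14, were sampled on days 1, 2, 3 and 4, with 2 polyA RNA libraries for each genotype and day. The endpoint libraries were KO diff_XEN, with 1 library each of the clones C4 and 5-3, WT diff_XEN with 2 libraries, A and B, and untreated WT mESC at passages 33 and 42. The labels do not say which clone the KO libraries of days 1 to 4 came from, and KO mESCs were not analysed here. Levels are CPM, that is counts scaled to a common, TMM-scaled library total, where TMM is the scaling of edgeR that sets most genes equal between libraries. Total counts per library were 10601574 to 27147835 in the course and 13941826 to 40139219 at the endpoint. The endpoint libraries came from earlier studies, and no level is compared between them and the course.

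In mouse embryonic stem cells, threonine is broken down in the mitochondrion by TDH, and the product is split by GCAT into glycine and acetyl-CoA. Glycine is then cleaved by a complex that contains GLDC, which loads a carbon unit onto folate. SHMT2 in the mitochondrion and SHMT1 in the cytosol interconvert serine and glycine and load or unload the same folate unit, and MTHFD2 oxidizes the loaded folate in the mitochondrion. Mouse embryonic stem cells are known for a high Tdh level and for their need of threonine.

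The target of the knockout was measured first. Ago2 stood at 43.4 and 33.8 CPM in KO against 332 and 414 CPM in WT libraries on day 1, and at 109 and 148 CPM in KO against 514 and 581 CPM in WT libraries on day 4. On day 2 it stood at 56.1 and 84.6 CPM in KO against 272 and 201 CPM in WT libraries, and on day 3 at 77.4 and 122 CPM in KO against 307 and 186 CPM in WT libraries. No KO library reached a WT library of its day, and the KO against WT log2 fold change was called on day 2 (-1.75 ± 0.30 SE, edgeR adjusted p = 0.00893) and on day 3 (-1.31 ± 0.29, edgeR adjusted p = 0.0219). At the endpoint Ago2 stood at 115 CPM in KO clone C4 and 9.35 CPM in KO clone 5-3, against 389 and 427 CPM in WT diff_XEN, and WT mESC held 619 and 311 CPM. The endpoint difference between KO and WT did not pass the test (log2 fold change -2.72 ± 1.04 SE, edgeR adjusted p = 0.0808).

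Day 3 libraries of the same group stood apart from each other in part of the pathway. Shmt2 was 3.88 times as high in replicate 2 as in replicate 1 of WT day 3, and Mthfd2 was 3.26 times as high in replicate 1 as in replicate 2 of KO day 3. KO replicate 1 was also the higher library on day 2, with 130 against 72.2 CPM of Mthfd2 and 227 against 154 CPM of Shmt2. The day 3 values of these genes are therefore also given without each of the 4 libraries.

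The 6 genes lie on different chromosomes of the mm10 build. Tdh spans chr14:63492347-63509092 on the minus strand. Gcat spans chr15:79030874-79038353 on the plus strand. Gldc spans chr19:30098447-30175429, Shmt1 chr11:60788104-60811718, Shmt2 chr10:127517123-127522444 and Mthfd2 chr6:83305691-83325908, all on the minus strand. The strand setting of the counting was not given, so that counts may be affected by reads of antisense neighbours. The antisense gene over Tdh, Gm17232, had 0 to 4 counts in any course library. On the opposite strand Shmt1 overlaps Smcr8 and Gm24945, Shmt2 overlaps Ndufa4l2 and Gldc overlaps Rpl31-ps20. Mthfd2 overlaps Gm43890 on its own strand, and a second annotated gene shares the symbol and place of Gcat.

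Promoters of 5 of the 6 genes were matched by symbol in RefSeq (GRCm38.p6), each from 250 bases before to 50 after the start site that RefSeq's table uses. For Mthfd2 and Shmt1 that site lies inside the gene span given above, which reaches further upstream. The 4 shown are those of Gcat and Gldc, whose levels changed on days 2 to 3, and of Shmt2 and Mthfd2, which moved together between day 3 libraries. Capitals mark a match to 1 of 7 motifs searched on both strands, which were the CCAAT box, the E-box CACGTG, the amino acid response element TGATGNAA, the nuclear receptor site AAGGTCA, the HNF4 element CAAAGTNCA, the GATA site AGATAA and the octamer ATGCAAAT. They lie at chr15:79030624-79030923 on the plus strand for Gcat and on the minus strand at chr19:30175392-30175691 for Gldc, chr10:127522395-127522694 for Shmt2 and chr6:83317555-83317854 for Mthfd2.
Gcat promoter: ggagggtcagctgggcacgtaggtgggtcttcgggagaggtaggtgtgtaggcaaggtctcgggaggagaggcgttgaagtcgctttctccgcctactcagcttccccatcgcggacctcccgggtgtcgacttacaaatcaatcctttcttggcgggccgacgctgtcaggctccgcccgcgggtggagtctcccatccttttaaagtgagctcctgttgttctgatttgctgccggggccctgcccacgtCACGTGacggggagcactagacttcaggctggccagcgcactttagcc
Gldc promoter: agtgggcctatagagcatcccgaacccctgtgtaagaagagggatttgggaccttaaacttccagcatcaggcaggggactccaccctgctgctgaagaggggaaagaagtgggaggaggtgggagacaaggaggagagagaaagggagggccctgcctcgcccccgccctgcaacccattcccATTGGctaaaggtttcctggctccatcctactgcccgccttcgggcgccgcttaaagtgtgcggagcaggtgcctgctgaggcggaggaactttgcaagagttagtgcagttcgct
Shmt2 promoter: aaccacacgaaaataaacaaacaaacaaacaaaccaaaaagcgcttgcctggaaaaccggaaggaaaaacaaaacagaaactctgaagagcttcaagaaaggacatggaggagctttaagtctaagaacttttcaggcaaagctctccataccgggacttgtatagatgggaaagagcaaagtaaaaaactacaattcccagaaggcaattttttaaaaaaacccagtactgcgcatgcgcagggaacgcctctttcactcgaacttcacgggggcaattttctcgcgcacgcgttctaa
Mthfd2 promoter: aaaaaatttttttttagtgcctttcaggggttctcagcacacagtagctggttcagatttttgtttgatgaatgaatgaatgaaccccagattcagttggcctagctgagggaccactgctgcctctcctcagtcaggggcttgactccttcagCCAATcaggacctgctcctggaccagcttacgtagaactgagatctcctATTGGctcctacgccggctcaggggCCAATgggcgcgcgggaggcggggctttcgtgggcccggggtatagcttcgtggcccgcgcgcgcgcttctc
The Mthfd2 window held 3 CCAAT matches, at positions -96, -47 and -22 from the start, and those of Gldc and Shmt1 held 1 each, where ATTGG is CCAAT on the other strand. CCAAT occurs in 37.4% of 32851 mouse promoters of this length. The Gcat window held the E-box at position 3, which 7.15% of promoters hold. No 2 matches overlapped, and the windows of the 5 genes held none of the other motifs, which occur in 1.41% (CAAAGTNCA) to 11.2% (AGATAA) of promoters.

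Tdh encodes the dehydrogenase that opens threonine breakdown. KO libraries held 115 and 136 CPM on day 1, 8.85 and 4.65 CPM on day 2, 5.49 and 2.13 CPM on day 3, and 1.35 and 2.78 CPM on day 4. WT libraries held 58.0 and 46.1 CPM on day 1, 15.0 and 16.3 CPM on day 2, 56.9 and 30.7 CPM on day 3, and 102 and 97.7 CPM on day 4. KO libraries were thus above both WT libraries on day 1 and below both on each later day. In KO cells every library of days 2 to 4 was far below day 1, whereas in WT cells the lowest level was that of day 2. These values chose the genes, so the day 4 against day 1 log2 difference of -5.89 ± 0.48 in KO and 0.94 ± 0.37 in WT (SE) is given with no test.

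Days 2 and 3 were tested over all 17694 genes of the course in a fit of its 16 libraries. They belong to the course from which Tdh was chosen, so its tests there are not independent of that choice. On day 2, the KO against WT log2 fold change of Tdh was -1.21 ± 0.39 (SE, edgeR quasi-likelihood test with Benjamini-Hochberg adjustment, adjusted p = 0.162) and did not pass, although the groups did not overlap. It passed with DESeq2 (-1.21, adjusted p = 0.041), in edgeR with no expression filter (-1.21, adjusted p = 3.42e-06) and in a fit of the 4 compared libraries alone (-1.22, edgeR adjusted p = 0.031). On day 3 Tdh was lower in KO by -3.41 ± 0.43 on the log2 scale (edgeR adjusted p = 8.36e-04), an 11.5-fold difference of mean CPM. In the fit of the 4 day 3 libraries alone, that call was lost (-3.47, edgeR adjusted p = 0.086).

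Between days 2 and 3, Tdh rose in WT cells by 1.48 ± 0.38 (log2, edgeR adjusted p = 0.0256), and its KO change was -0.71 ± 0.42 (adjusted p = 0.328), with overlapping groups. The WT call was lost without WT day 2 replicate 1 (1.42) or replicate 2 (1.52), and without WT day 3 replicate 1, where the value was 0.96, and in the fit of the 8 libraries of both days alone (1.47, edgeR adjusted p = 0.0786). The KO change was called with no expression filter (-0.71, edgeR adjusted p = 0.0266). The genotype difference of the day 2 to 3 change was -2.19 ± 0.57 (unadjusted p = 0.00219, edgeR adjusted p = 0.550). It did not pass edgeR with the expression filter. It passed edgeR without that filter (-2.19, adjusted p = 4.15e-09) and DESeq2 (-2.26, adjusted p = 0.024). Without the filter the estimate was unchanged and its p far smaller. That fit also called Shmt2 on day 3, where the groups overlapped. The calls of the fit without the filter, on day 2 also, are therefore not taken as support.

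**Figure D1:**
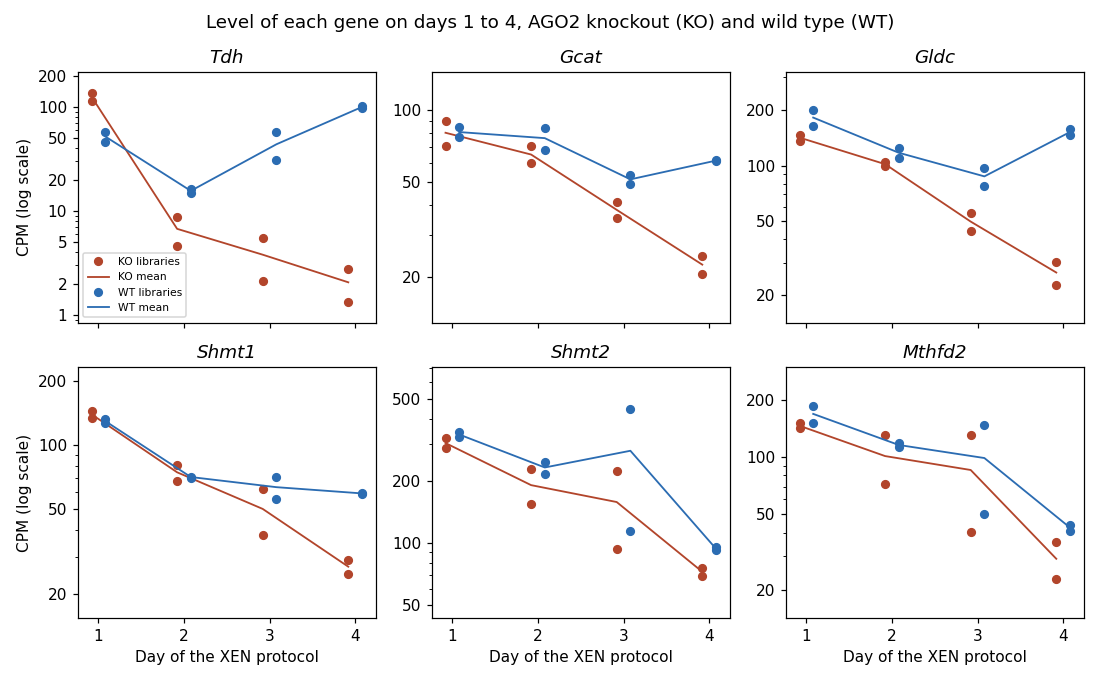
CPM on a log axis against the day of the protocol for each of the 6 genes, with points for the libraries and lines through the mean of the 2 libraries of each genotype and day. In KO cells Tdh stood at 1.35 and 2.78 CPM on day 4 against 102 and 97.7 CPM in WT cells, and the day 3 libraries of Shmt2 and Mthfd2 lie far apart.

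Gcat, the ligase that turns the TDH product into glycine, was at a similar level in both genotypes on day 1. KO libraries held 70.4 and 90.1 CPM on day 1, 70.4 and 59.8 CPM on day 2, 41.2 and 35.3 CPM on day 3, and 20.6 and 24.5 CPM on day 4. WT libraries held 84.5 and 77.0 CPM on day 1, 84.2 and 68.2 CPM on day 2, 53.5 and 49.0 CPM on day 3, and 61.2 and 61.6 CPM on day 4. The groups overlapped on days 1 and 2 and were separate, with KO lower, on days 3 and 4. Between days 2 and 3 Gcat fell in KO cells by 0.76 ± 0.17 (log2, SE, edgeR adjusted p = 0.0118) and in WT cells by 0.57 ± 0.16 (edgeR adjusted p = 0.0351). The day 3 difference between KO and WT did not pass (-0.42 ± 0.17, edgeR adjusted p = 0.172). The KO fall was no longer called without KO day 2 replicate 1 (-0.64) or KO day 3 replicate 2 (-0.67), nor the WT fall without WT day 2 replicate 1 (-0.42), WT day 2 replicate 2 (-0.73) or WT day 3 replicate 2 (-0.54).

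Gldc, the decarboxylase of the glycine cleavage complex, had parted between genotypes by day 3. KO libraries held 147 and 136 CPM on day 1, 105 and 99.0 CPM on day 2, 55.3 and 44.6 CPM on day 3, and 22.7 and 30.3 CPM on day 4. WT libraries held 163 and 200 CPM on day 1, 125 and 110 CPM on day 2, 97.5 and 77.6 CPM on day 3, and 158 and 146 CPM on day 4. The KO libraries were below both WT libraries on every day. On day 3 Gldc was lower in KO by -0.80 ± 0.17 (log2, SE, edgeR adjusted p = 0.0181), and between days 2 and 3 it fell in KO cells by 1.02 ± 0.17 (edgeR adjusted p = 0.00342). The WT change was -0.42 ± 0.17 (edgeR adjusted p = 0.114), and the genotype difference of the changes was -0.60 ± 0.24 (edgeR adjusted p = 0.834). The day 3 genotype call was lost without KO day 3 replicate 2 (-0.64) and in the fit of the 4 day 3 libraries alone (-0.83, edgeR adjusted p = 0.240).

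Shmt1, the cytosolic serine hydroxymethyltransferase, differed little between the genotypes before day 4. KO libraries held 133 and 145 CPM on day 1, 80.8 and 68.0 CPM on day 2, 62.3 and 38.0 CPM on day 3, and 24.8 and 29.0 CPM on day 4. WT libraries held 132 and 127 CPM on day 1, 70.3 and 71.1 CPM on day 2, 56.1 and 70.7 CPM on day 3, and 58.7 and 59.8 CPM on day 4. On day 1 both KO libraries were above both WT libraries, KO and WT overlapped on days 2 and 3, and on day 4 both KO libraries were below both WT libraries. The KO change between days 2 and 3 was -0.56 ± 0.19 (log2, SE, edgeR adjusted p = 0.0827) and the day 3 difference between KO and WT was -0.33 ± 0.19 (edgeR adjusted p = 0.363), so neither passed. The KO change between days 2 and 3 was called without KO day 3 replicate 1 (-0.98, edgeR adjusted p = 0.00693) and with no expression filter (-0.56, edgeR adjusted p = 0.0305).

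Shmt2, the mitochondrial form, and Mthfd2, the folate dehydrogenase after it, differed least between the genotypes in the day 1 to 4 change. Shmt2 held 287 and 322 CPM on day 1, 227 and 154 CPM on day 2, 223 and 93.0 CPM on day 3, and 75.7 and 69.4 CPM on day 4 in KO libraries. It held 343 and 327 CPM on day 1, 217 and 247 CPM on day 2, 115 and 444 CPM on day 3, and 95.2 and 92.4 CPM on day 4 in WT libraries. The level of Shmt2 on day 4 was below that of day 1 in every library of both genotypes. The log2 difference of day 4 against day 1 was -2.07 ± 0.52 in KO and -1.84 ± 0.51 in WT (SE, no test).

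Mthfd2 held 142 and 151 CPM on day 1, 130 and 72.2 CPM on day 2, 131 and 40.1 CPM on day 3, and 35.5 and 22.8 CPM on day 4 in KO libraries. WT libraries held 186 and 151 CPM on day 1, 113 and 119 CPM on day 2, 50.0 and 148 CPM on day 3, and 40.9 and 44.1 CPM on day 4. As for Shmt2, day 4 lay below day 1 in both genotypes, by log2 differences of -2.33 ± 0.56 in KO and -1.99 ± 0.55 in WT (SE, no test).

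On day 3 the KO against WT value was -0.82 ± 0.50 for Shmt2 (log2, SE, edgeR adjusted p = 0.386) and -0.20 ± 0.53 for Mthfd2 (edgeR adjusted p = 0.871), with overlapping groups. Without WT day 3 replicate 2 these values were 0.50 for Shmt2 and 0.82 for Mthfd2, and without KO day 3 replicate 2 they were -0.32 and 0.41. Without WT day 3 replicate 1 they were -1.48 and -0.77, and without KO day 3 replicate 1 they were -1.58 and -1.29. The sign thus changed without 1 library for Shmt2 and without either of 2 libraries for Mthfd2. Shmt2 was called lower in KO without WT day 3 replicate 1 (edgeR adjusted p = 0.0150) and with no expression filter (-0.83, edgeR adjusted p = 1.34e-04).

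Serine synthesis and amino acid response genes split in the same day 3 libraries. In WT day 3, Psat1, a transaminase of serine synthesis, held 716 CPM in replicate 2 against 92.9 CPM in replicate 1. Asns, the asparagine synthetase, held 804 against 188 CPM, and Slc7a11, the cystine transporter, 52.1 against 0.924 CPM. Of the 15 genes of an ATF4 and amino acid response list, 10 were more than 2 times as high in WT day 3 replicate 2 as in replicate 1, as were 3 of 3 serine synthesis genes, against 3.25% of 14471 genes with at least 10 counts in both libraries. In KO day 3, the higher library was replicate 1, in which Psat1 held 380 CPM against 111 CPM in replicate 2, and Asns 475 against 121 CPM. There 7 of 14 response genes and 1 of 3 serine synthesis genes were more than 2 times as high, against 2.29% of 14305 genes. Phgdh and Psph were 1.92 and 1.89 times as high in that library. Tdh held 30.7 CPM in the WT library high for these genes and 56.9 CPM in the other. In KO day 3 Tdh held 5.49 CPM in the library high for these genes and 2.13 CPM in the other, the opposite order and its largest replicate ratio in the course (2.57). Gcat and Gldc differed between replicates by at most 1.28 and 1.33 times in any course group. The part of these genes in the day 3 values of Shmt2 and Mthfd2 was not tested.

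Counted over the 6 genes, 0 were called between KO and WT on day 2, where 1.63% of all genes were called in either direction. Tdh and Gldc, 2 of 6, were lower in KO on that day with no overlap of the groups, as were 29% of all genes. On day 3, 2 of 6, Tdh and Gldc, were called lower in KO, where 3% of all genes were called lower and 4.83% in either direction. Tdh is among those called, and its own course led to the choice of the genes. With Gcat, 3 of 6 were lower in KO with no overlap on day 3, as were 21.5% of all genes. Between days 2 and 3 in KO cells, Gcat and Gldc were called lower, 2 of 6, against 3.27% of all genes called lower and 9.35% in either direction. In WT cells Tdh was called higher and Gcat lower, against 8% of all genes called higher and 5.34% lower, 13.3% in all. No gene of the 6, and 0% of the 17694 genes tested, was called for the genotype difference of the day 2 to 3 change with edgeR. For that difference 1009 genes, 5.70%, had an unadjusted edgeR p below 0.05, a share near that threshold. Tdh and Gldc, 2 of 6, were among them. DESeq2 called 31 genes there, Tdh included.

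On day 4 the log2 difference of KO against WT was -5.56 for Tdh, -2.51 for Gldc, -1.44 for Gcat and -1.14 for Shmt1, then -0.55 for Mthfd2 and -0.37 for Shmt2, beside a median of -0.005 over all genes. On day 1 the same difference was 1.27 for Tdh and between -0.36 and 0.11 for the other 5 genes. None of these was tested. Per kilobase of exon, which allows levels to be set between genes, WT day 4 libraries held 37.4 to 39.1 CPM per kb of Tdh, the highest of the 6, and Mthfd2 was the lowest with 11.7 to 12.6 CPM per kb. In KO day 4 libraries Tdh was the lowest with 0.517 to 1.06 CPM per kb, and Shmt2 the highest with 22.3 to 24.3 CPM per kb.

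At the endpoint all 6 genes were lower in KO diff_XEN than in WT diff_XEN. The choice of the genes rested on Tdh in the course, but it was made with earlier results of these data known. Tdh held 0.410 CPM in clone C4, from 6 counts, and 2.95 CPM in clone 5-3, from 102 counts, against 194 and 202 CPM in WT diff_XEN. Gldc held 11.8 CPM in clone C4 and 9.52 CPM in clone 5-3, against 182 and 82.1 CPM in WT diff_XEN. Both KO clones were low for both genes, and the WT libraries of Gldc differed by more than 2 times from each other. Tdh was lower by -6.66 ± 0.74 on the log2 scale (SE, edgeR adjusted p = 0.00313) and Gldc by -3.61 ± 0.43 (edgeR adjusted p = 0.00355).

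Shmt2 held 63.8 CPM in clone C4 and 63.9 CPM in clone 5-3, against 452 and 351 CPM in WT diff_XEN (-2.63 ± 0.20, log2, SE, edgeR adjusted p = 0.00224). Shmt1 held 11.1 and 11.3 CPM in the KO clones against 54.7 and 54.3 CPM in WT diff_XEN (-2.26 ± 0.18, edgeR adjusted p = 0.00224). Both pairs of clones lay close together, far below the WT libraries. Mthfd2 held 29.5 CPM in clone C4 and 36.5 CPM in clone 5-3, against 125 and 171 CPM in WT diff_XEN (-2.13 ± 0.24, edgeR adjusted p = 0.00316). Gcat held 5.88 CPM in clone C4 and 11.9 CPM in clone 5-3, against 37.7 and 20.1 CPM in WT diff_XEN (-1.65 ± 0.47, edgeR adjusted p = 0.0356). The Gcat call was lost without the higher WT library (-1.16) or without clone C4 (-1.20). The count of 6 of 6 stands beside 24.9% of the 16671 genes tested that were called lower and 47% called in either direction, and beside 41.4% that were lower in KO with no overlap of the groups.

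**Figure D2:**
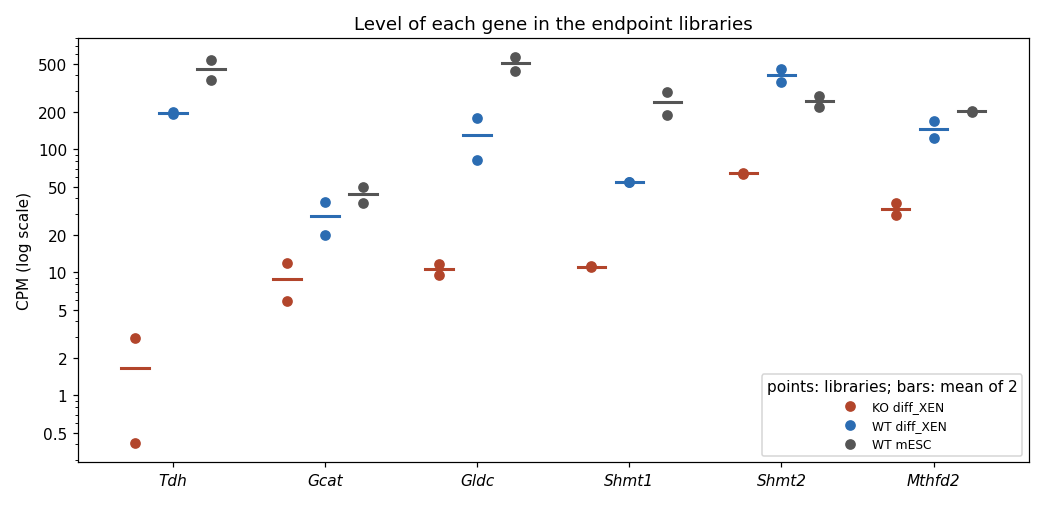
CPM on a log axis for the 6 genes in KO diff_XEN, WT diff_XEN and WT mESC, with a point for each library and a bar at the mean of 2. Tdh reached 0.410 and 2.95 CPM in the KO clones against 194 and 202 CPM in WT diff_XEN, and every KO library lies below every WT diff_XEN library for each gene.

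**Figure D3:**
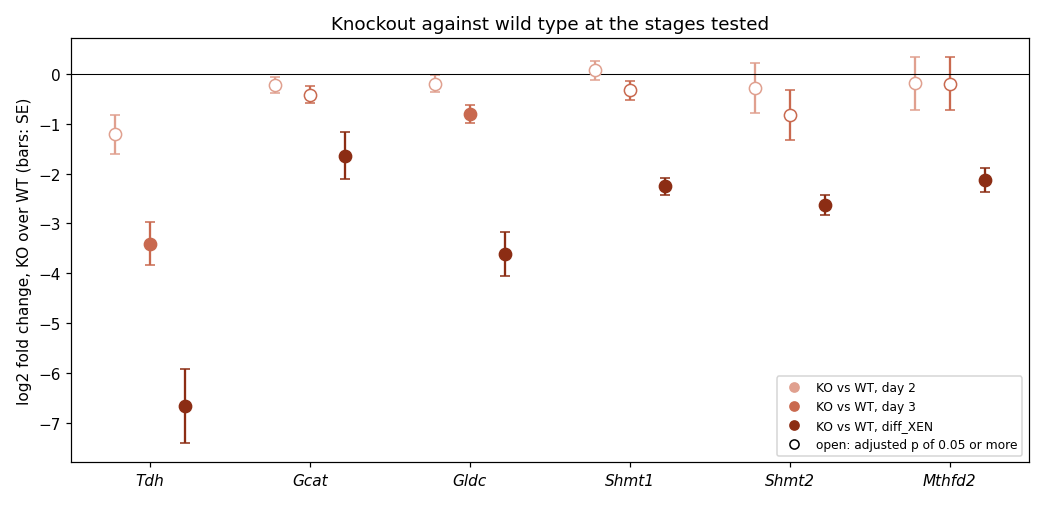
Log2 fold change of KO over WT with its SE for the 6 genes on day 2, on day 3 and in diff_XEN, filled where the adjusted p was below 0.05. None was called on day 2, Tdh and Gldc on day 3, and all 6 in diff_XEN.

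WT diff_XEN was also compared with WT mESC, in a fit of the 6 endpoint libraries. The mESC counts came from files of their own. Cell state and source of the counts can therefore not be told apart in this comparison, for the 6 genes or for the lists below. Shmt1 held 54.7 and 54.3 CPM in WT diff_XEN against 190 and 295 CPM in mESC, and was lower by -2.15 ± 0.26 (log2, SE, edgeR adjusted p = 7.32e-04). Gldc held 182 and 82.1 CPM in WT diff_XEN against 563 and 438 CPM in mESC, and was lower by -1.92 ± 0.38 (edgeR adjusted p = 0.00518). Shmt2 was the exception, with 452 and 351 CPM in WT diff_XEN against 221 and 271 CPM in mESC, higher by 0.71 ± 0.23 (edgeR adjusted p = 0.0330). That call was lost without the higher WT diff_XEN library (0.57), without mESC passage 33 (0.59) and in the fit of the 4 compared libraries alone (0.73, edgeR adjusted p = 0.061).

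Tdh held 194 and 202 CPM in WT diff_XEN against 365 and 539 CPM in mESC, a difference of -1.19 ± 0.55 that did not pass (edgeR adjusted p = 0.105) but was called in the fit of the 4 compared libraries alone (-1.17, edgeR adjusted p = 0.013). Gcat held 37.7 and 20.1 CPM in WT diff_XEN against 49.8 and 36.8 CPM in mESC (-0.58 ± 0.42, edgeR adjusted p = 0.274). Mthfd2 held 125 and 171 CPM in WT diff_XEN against 204 and 207 CPM in mESC (-0.47 ± 0.24, edgeR adjusted p = 0.130). In all, 2 of 6 genes were lower and 1 higher, beside 25.3% of 17936 genes called lower, 27.2% higher and 52.5% in either direction.

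Neighbouring steps were followed with 84 genes in 6 lists, all chosen with earlier results of these data known. Of the 80 that were tested in the course, 1 was called lower in KO on day 2 and 3 on day 3, and 0 higher on either day, beside 1.63% of all genes called on day 2 and 3% called lower on day 3, so that these counts are near the background. The day 2 call, Bhmt (-2.11, edgeR adjusted p = 0.0305), was lost without any 1 of the 4 libraries. The day 3 calls included Gcsh, the carrier protein of the glycine cleavage complex, which held 52.5 and 47.6 CPM in KO against 102 and 108 CPM in WT (-1.07 ± 0.14, log2, SE, edgeR adjusted p = 7.33e-04). Aldh1l1, a cytosolic folate dehydrogenase, held 5.94 and 5.14 CPM in KO against 14.4 and 7.58 CPM in WT (-0.97 ± 0.26, edgeR adjusted p = 0.0492), and Bhmt, a homocysteine methyltransferase, at most 0.188 CPM in KO against 0.924 and 1.02 CPM in WT. Without 1 of the 4 compared libraries, 1 to 15 list genes were called on day 3, and of the 3 genes Gcsh alone was called in each of these fits. Amt, the aminomethyltransferase of the complex, held 57.6 and 44.9 CPM in KO against 56.3 and 40.4 CPM in WT on day 3, and was not called.

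In diff_XEN, 36 of 76 list genes tested were lower in KO and 10 higher, beside 24.9% of all genes lower and 22.1% higher. Leaving out each of the 4 libraries in turn kept 26 of the 36 and 5 of the 10. The list median was -0.75, against -0.02 over all genes. Of the glycine cleavage and breakdown list, 2 of 11 were lower and 3 higher, with a median of 0.54. Gcsh was lower (-2.13, edgeR adjusted p = 0.00244), as was Dld, the lipoamide dehydrogenase shared by several complexes (-1.53, edgeR adjusted p = 0.00358). Amt, of the same complex as Gcsh, was not called (1.32 ± 0.43, log2, SE, edgeR adjusted p = 0.0538), with both KO clones above both WT libraries. Sardh, the sarcosine dehydrogenase (3.17), and Srr, the serine racemase (1.75), were higher.

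All 3 serine synthesis genes were lower in KO diff_XEN. Psat1 held 73.7 CPM in clone C4 and 84.2 CPM in clone 5-3, against 540 and 779 CPM in WT (-3.03 ± 0.25, log2, SE, edgeR adjusted p = 0.00243). Psph, the phosphatase of the last step, was lower by -3.33, and Phgdh, the dehydrogenase of the first step, by -1.08, a call that was lost without clone C4. Of the folate list, 8 of 20 were lower and 2 higher with a median of -0.56. Aldh1l2, the mitochondrial folate dehydrogenase, stood at 1.44 CPM in clone C4 and 3.39 CPM in clone 5-3 against 112 and 146 CPM in WT (-5.62 ± 0.45, edgeR adjusted p = 0.00234). Mthfd1l, the mitochondrial synthetase that releases formate, was lower by -2.06, and Mthfd2l, a relative of Mthfd2, was higher by 2.07, a call lost without clone 5-3.

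Amino acid transporters were lower in 7 of 11 cases and higher in 1, with a median of -1.60. Slc7a5 (-2.89), Slc1a5 (-2.03) and Slc38a2 (-1.60) were lower in KO diff_XEN, and Slc38a4 was higher (3.52). Of the ATF4 and amino acid response list, which holds target genes of the stress-activated factor ATF4, 11 of 15 were lower and 1 higher, with a median of -1.63. Slc7a11 held 0.478 CPM in clone C4 and 0.347 CPM in clone 5-3, against 22.5 and 29.6 CPM in WT (-5.99 ± 0.34, edgeR adjusted p = 0.00224), Asns was lower by -2.68 and Gars, the glycyl-tRNA synthetase, by -1.76, while Cebpb, a transcription factor gene, was higher (1.99). Of the methionine cycle list, 5 of 16 were lower and 3 higher with a median of -0.32, among them Cth, the cystathionine lyase, lower by -2.20, and Nnmt, the nicotinamide methyltransferase, higher by 3.60, a call lost without clone 5-3 or without WT diff_XEN library B.

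**Figure D4:**
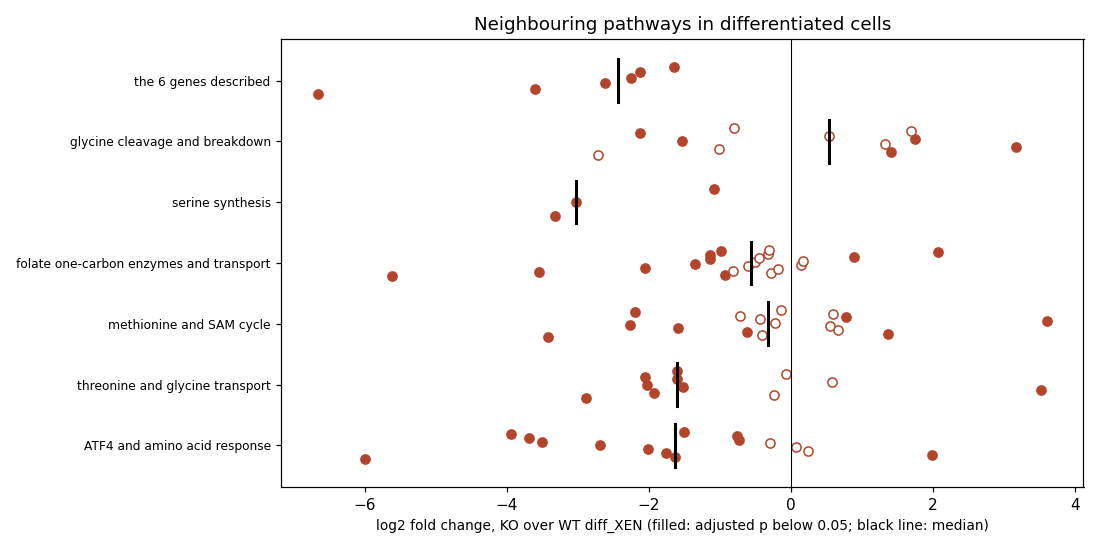
Log2 fold change of KO over WT diff_XEN for the 6 genes and for the genes of 6 neighbouring lists, filled where the adjusted p was below 0.05, with a black line at each median. The medians lie between -3.03 for serine synthesis and 0.54 for glycine cleavage and breakdown among the 6 lists.

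In WT diff_XEN against WT mESC, 25 of 78 list genes were lower and 23 higher, beside 25.3% lower and 27.2% higher of all genes. Leaving out each of the 4 compared libraries in turn kept 14 of the 25 and 18 of the 23. Of the list of folate enzymes and transport, 11 of 20 genes were lower and 5 higher, with Gart (-1.96) and Paics (-1.95), both of purine synthesis, among the lower ones. These counts include the folate transporter gene Slc46a1 and the folate receptor gene Folr1, higher by 2.54 and 3.50, and Slc25a32, the mitochondrial folate carrier, lower by -1.20. The methionine cycle had 10 of 17 lower, among them Sms, the spermine synthase (-2.85), and Cbs, the cystathionine synthase (-4.80), and 1 higher. Of the glycine list 3 of 12 were lower and 4 higher, with Amt lower by -2.64. The amino acid response list had 7 of 15 higher and 0 lower, with Atf5 (2.48) and Ddit3 (1.66) among them.

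Markers of the cell types that the cultures could hold were also measured, and they did not all change in the direction of Tdh. From day 1 to day 4 the summed pluripotency markers fell and the summed XEN markers rose in both genotypes. Tdh fell in KO cells and rose in WT cells over the same days. Summed over 8 pluripotency markers, KO libraries held 5915 to 7140 CPM on day 1 and 268 to 586 CPM on day 4, and WT libraries 4006 to 5140 CPM on day 1 and 743 to 1143 CPM on day 4. At the endpoint the same sum was 66.6 to 92.1 CPM in KO diff_XEN against 878 to 924 CPM in WT diff_XEN, and WT mESC held 5431 to 6530 CPM. Pou5f1 (-4.95, log2, edgeR adjusted p = 0.00393) and Nanog (-3.73, edgeR adjusted p = 0.0265) were lower in KO diff_XEN, and Sox2 was not called (-0.01, edgeR adjusted p = 0.989). Summed over 10 primitive endoderm and XEN markers, KO libraries held 1746 to 2220 CPM on day 4 against 8191 to 8751 CPM in WT, and KO diff_XEN 3262 to 4180 CPM against 32952 to 53191 CPM in WT diff_XEN. Visceral endoderm markers, 8 in the list, summed to 11.3 to 13.5 CPM in KO and 48.3 to 79.4 CPM in WT on day 1. On day 4 they summed to 33.6 to 59.5 CPM in KO and 2426 to 2548 CPM in WT, so the sum rose in both genotypes. Hnf4a of this list moved as Tdh did, from a mean of 7.13 to 0.727 CPM in KO and from 9.28 to 38.5 CPM in WT. In diff_XEN the sum was 12.6 to 118 CPM in KO against 8532 to 8847 CPM in WT.

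The KO libraries labelled diff_XEN therefore held less of the pluripotency, XEN and visceral endoderm markers than WT diff_XEN. They also held 2319 to 3705 CPM of 6 fibroblast and mesenchyme markers, against 311 to 709 CPM in WT diff_XEN, and 395 to 480 CPM of 5 neural markers against 49.9 to 77.0 CPM. Mesoderm markers (5 genes) summed to 32.9 to 40.9 CPM in KO and 17.1 to 18.5 CPM in WT diff_XEN, and trophoblast markers (5 genes) to 37.6 to 45.0 CPM in KO and 18.0 to 23.2 CPM in WT diff_XEN. No pluripotency or XEN marker was at 0 in any library, and the KO clones had no counts of T, Mesp1, Lum and Cdx2, while Mesp1 was also at 0 in both WT diff_XEN libraries and T in library B. The part of cell type in the levels of Tdh, Gldc and the other 4 genes was not tested, and in these bulk samples fewer cells of a type and less RNA per cell cannot be told apart.

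The genes most like Tdh over the 16 course libraries were sought among the 11586 genes that averaged 5 CPM or more, by the root mean square difference of log2(CPM + 0.5) after centring each gene. The nearest 8 were Rbm47 (0.89), Dpp4 (0.92), Mt2 (0.95), Hnf4a (0.96), Slc23a1 (1.01), Mt1 (1.02), Ap1m2 (1.10) and Ggt1 (1.12). The median gene differed from Tdh by 2.09, and a gene of constant level would differ by 2.05. Hnf4a encodes a transcription factor found in liver and visceral endoderm, Dpp4 a cell surface peptidase, Mt1 and Mt2 metallothioneins and Slc23a1 a vitamin C transporter. Mean levels of Dpp4 were 37.6, 9.25, 6.52 and 4.45 CPM in KO and 39.0, 14.3, 58.7 and 106 CPM in WT on days 1 to 4. Hnf4a averaged 0.727 CPM in KO on day 4, against 38.5 CPM in WT on that day.

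Among the other 5 genes, Gldc stood nearest to Tdh, at rank 39, followed by Shmt1 at rank 123 and Gcat at rank 202. Shmt2 stood at rank 1189 (1.85) and Mthfd2 at rank 1530 (1.87), not far below the 2.05 of a gene of constant level. Since the 16 libraries include those whose values chose Tdh, these ranks are a description.

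**Figure D5:**
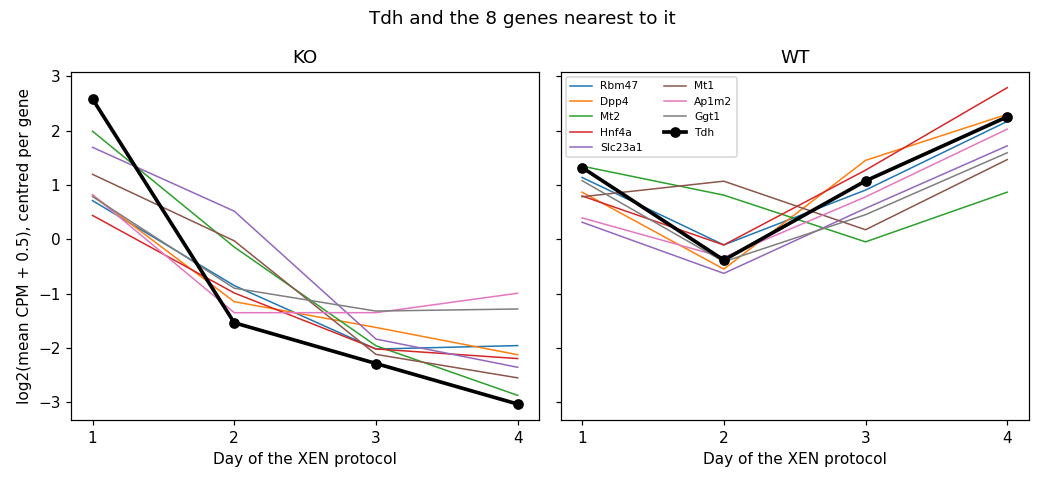
Centred log2(mean CPM + 0.5) on days 1 to 4 in KO (left) and WT (right) for Tdh and the 8 genes nearest to it over 16 libraries. In KO every line lies lower on day 3 than on day 1, and on day 4 every line lies higher in WT than in KO.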

How the data were processed

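Per the labels' protocols, TruSeq libraries of polyA RNA were run on a HiSeq2000. The authors deposited whole-number read counts for each gene, made with STAR 2.5.0c and featureCounts 1.4.5-p1 on mm10, per the submitters' processing notes. The annotation release and the strand setting are not given in the sources used here. Of the 24 samples in 12 groups, 22 libraries were used. Another 3 columns of the series table that no label ties to a sample were used in no step. The columns of diff_XEN were matched by group, and the mESC files were joined to that table by identifier. Total counts per library ranged from 10601574 to 40139219.

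The test was glmQLFTest of edgeR 4.0.16 under R 4.3.3 (robust quasi-likelihood fit, TMM scaling, default expression filter by group, group means). The course was a fit of 16 libraries in 8 groups, KO against WT diff_XEN a fit of 4 libraries, and WT diff_XEN against WT mESC a fit of all 6 endpoint libraries, from which endpoint CPM were also taken. A gene was called where its p, after Benjamini-Hochberg adjustment across every gene in the fit, was under 0.05. The SE comes from the F statistic. Alternatives were DESeq2 1.42.0, its size factors, no expression filter, smaller fits, the replicate number as a block and fits that lack 1 library, whose remaining partner is then assumed to vary as the other groups do. The script was tested on simulated counts.

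The 6 genes, the lists and the markers were chosen with earlier results of these data known. Named list genes are those with the smallest p, at most 3 per direction, list and comparison, plus the genes of glycine cleavage, serine synthesis and mitochondrial folate steps, and the day 3 examples Asns and Slc7a11 and the gene Slc25a32 were chosen after their values were seen. A gene that the naming rule takes is not reported here. The labels do not say that replicates are separate cultures, and p-values then measure only the spread between these samples, possibly technical. All replicate pairs differed beyond sampling noise, and none was merged.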

Additional observations from a re-analysis of the deposited data

How the results depend on the processing

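With 2 libraries a group, calls near the threshold rest on single libraries, and Tdh in KO cells on few counts. Of 408 alternative values of the 6 genes, 363 kept direction and side of the threshold, 18 lost a call, 11 gained one and 16 changed sign, each by leaving out 1 library. The cause was not tested.

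The number of the 6 genes called between KO and WT on day 2 was 0, and 1 (Tdh) with no expression filter, in the 4 libraries alone and with DESeq2. On day 3 it was 2, and 0 in the 4 libraries alone, and 1 to 3 without a library, with Shmt2 called with no expression filter and without WT replicate 1. Between days 2 and 3 it was 2 in WT cells, with 0 in the 8 libraries of those days alone and 0 to 1 without a library, and 2 in KO cells, with 4 without the filter and 1 to 3 without a library. For the genotype difference of that change it was 0, and 1 without the filter and with DESeq2. In diff_XEN the count was 6 in every alternative except 5 to 6 without a library, and against mESC 3, with 2 to 3 without a library. Tdh between days 1 and 4 ranged from -6.58 to -5.54 in KO, and its genotype difference from -7.50 to -6.45, without a library.

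Sign changes touched Shmt1 and Mthfd2 on day 2 (KO against WT -0.061 to 0.20 and -0.69 to 0.18 without a library), and Shmt2 and Mthfd2 on day 3 (-1.58 to 0.50 and -1.29 to 0.82). Between days 2 and 3 in WT cells they ranged from -1.05 to 0.92 for Shmt2 and from -1.25 to 0.34 for Mthfd2, and in KO cells from -1.04 to 0.21 and from -1.34 to 0.36. Their genotype difference of that change ranged from -1.29 to 0.78 for Shmt2 and from -1.10 to 1.01 for Mthfd2. Over all genes, 288 were called on day 2, and 1094 with no filter, 67 in the 8 libraries, 1440 in the 4 libraries and 611 with DESeq2, with 49 to 105 without a library. On day 3, 854 were called, and 2035, 349, 35 and 1337 under those settings, with 271 to 2643 without a library. Between days 2 and 3 the WT count of 2360 was 1266 in the 8 libraries and 333 to 3144 without a library. The KO count of 1654 was 2651 with no filter, 868 in the 8 libraries and 144 to 1910 without a library. The genotype difference of that change gave 0, 242 with no filter, 31 with DESeq2 and 0 to 531 without a library. In diff_XEN 7835 became 4180 to 6952 without a library.

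The labels number replicates alike on each day but do not say whether the same number means a shared origin. Differences between replicates 1 and 2 correlated at 0.626 between days 2 and 3 in KO cells and at -0.064 in WT cells. Between KO and WT they correlated at 0.024 on day 2 and at -0.149 on day 3. Over all pairs of groups they correlated between -0.382 and 0.647. With the replicate number as a block, 249 genes were called on day 2 and 767 on day 3, 2123 in WT and 1446 in KO between days 2 and 3, and no call of the 6 genes changed. That block was shared by both genotypes, so it could not model a replicate difference present in KO cells alone. With the day 3 KO numbers crossed, an alternative chosen after seeing the data, 841 genes were called on day 3, and 2 of the 6. A fit of KO and WT diff_XEN with all 6 endpoint libraries, also added later, called 6775 genes and all 6.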
